A study of Mus musculus with 6 samples.

Results

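The mouse genes with Zfp symbols and a number encode zinc finger proteins, and 148 of them were expressed at a mean of at least 5 FPKM over the 6 libraries described here. FPKM is a level per length, fragments divided by transcript length and by library size, so that genes can be compared with each other. The members were chosen by symbol and by that mean level, leaving out Zfp683. They are 148 of 375 such Zfp genes in a table of 55951 genes. Of the others, 102 had a mean from 1 to under 5 FPKM, 103 were above 0 and under 1, and 22 were listed at 0 in every library. The mean level was used to choose the members and is given below as a description. The difference between the 2 groups was not used by the rule, except that 26 members reached 5 FPKM in only 1 of the groups.

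RNA was sequenced from spleen cells of C57BL/6 mice that carry an S100A4-EGFP reporter, in which green fluorescence follows S100A4, a small calcium-binding protein, and in which asthma had been induced with ovalbumin (OVA). Cells gated as CD3+ CD8+ CD4- CD44+ CD62L-, the surface pattern of effector-memory CD8+ T cells, were sorted by EGFP. Both groups share the strain, the reporter and the OVA model, the labels' treatment field reads "untreated" for both, and no age, sex or OVA schedule is given in the sources used here. The EGFP- group (S100A4-negative below) and the EGFP+ group (S100A4-positive) each had 3 libraries. The labels do not say whether these came from separate animals, and the p-values then reflect only how far these samples differ, which may be technical.

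Most members of this family carry C2H2 zinc fingers, short loops in which 2 cysteines and 2 histidines hold a zinc ion and the residues between them read DNA. Many also carry a KRAB box, which recruits the corepressor Trim28 and, through it, the H3K9 methyltransferase Setdb1, heterochromatin proteins and deacetylases. KRAB zinc finger proteins are best known for silencing transposable elements and for protecting imprinted loci. A few members have other fingers or other work, such as Zfp36 (tristetraprolin), whose CCCH fingers bind AU-rich elements of mRNAs, Tnf among them, and target them for decay.

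The finger is what gives the family its name, so the coding bases of single fingers are shown for members with some of the largest changes in each direction, and both CCCH fingers are shown for Zfp36, the most abundant member. The sequences were read 5′ to 3′ on the coding strand from the GRCm38 genome with GENCODE M21 coding exons, and the codons of the zinc-holding cysteines and histidines are in capitals. The first fingers of 2 members that rose were, at chr13:99229086-99229148 (plus strand) and chr7:43590016-43590078 (plus strand):
Zfp366: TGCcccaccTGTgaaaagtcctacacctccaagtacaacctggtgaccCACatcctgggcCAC
Zfp719: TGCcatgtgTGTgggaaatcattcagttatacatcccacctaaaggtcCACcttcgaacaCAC

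The first fingers of 3 members that fell were, at chr7:42475751-42475813 (minus strand), chr2:174643966-174644028 (plus strand) and chr7:35795185-35795247 (minus strand):
Zfp141: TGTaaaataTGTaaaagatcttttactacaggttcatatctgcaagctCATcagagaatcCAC
Zfp831: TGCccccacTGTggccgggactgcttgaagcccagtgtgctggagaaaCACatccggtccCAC
Zfp507: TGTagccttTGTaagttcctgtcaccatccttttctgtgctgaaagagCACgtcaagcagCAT

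Zfp36 has 3 cysteines and 1 histidine in each finger, at chr7:28378158-28378217 for the first and chr7:28378044-28378103 for the second (minus strand):
Zfp36 finger 1: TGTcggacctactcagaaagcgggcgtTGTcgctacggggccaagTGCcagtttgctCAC
Zfp36 finger 2: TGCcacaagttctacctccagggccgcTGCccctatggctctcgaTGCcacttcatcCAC

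The libraries held 14925260 to 18660188 reads, recovered from the deposited FPKM together with the authors' group means of normalized counts. The members took 84993 to 140403 of these reads per library. The median member had 274 to 659 reads in a library and the lowest 22. Markers of other cell types differed between the groups. All 13 T cell markers fell in S100A4-positive libraries (summed level 2735 to 3233 FPKM in S100A4-negative libraries and 408 to 600 in S100A4-positive ones), and all 15 monocyte and macrophage markers rose (530 to 743 against 7113 to 8123 FPKM). Cd3e, a subunit of the T cell receptor complex, fell from 146 ± 19.1 to 23.5 ± 6.20 FPKM (SD, n = 3), while Csf1r, the growth factor receptor of macrophages, rose from 22.6 ± 9.88 to 1040 ± 204 FPKM. Cd8a, a chain of the CD8 coreceptor, was at 85.2 to 187 FPKM in S100A4-negative libraries and at 13.6 to 31.9 in S100A4-positive ones. RNA of S100a4 itself was low in both groups, at 0, 0.405 and 0.129 against 1.27, 4.02 and 1.52 FPKM. Cd4, which the gate left out, was at 67.2, 337 and 111 FPKM in S100A4-negative libraries. In S100A4-positive libraries Cd4 was at 42.5, 52.4 and 66.6 FPKM. Of the other lists, 9 of 10 B cell markers (7212 to 12649 against 1588 to 1614 FPKM), 7 of 8 plasma cell markers (1332 to 2793 against 360 to 653) and 10 of 10 neutrophil markers (3292 to 4870 against 412 to 1711) fell, while 6 of 7 dendritic cell markers rose (47.3 to 82.8 against 354 to 490). Among the plasma cell markers Prdm1 went the other way and was called higher. Both NK cell markers tested, of 4 in the list, fell, and 0 of 5 erythroid markers tested passed. No marker of these lists was at 0 in every library, and the part of these markers in any result below was not tested. In such bulk samples fewer cells of a type and less RNA per cell cannot be told apart.

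More members fell than rose in S100A4-positive cells. Of the 148, 94 fell (63.5%), 12 rose (8.11%) and 42 did not pass the test. Among all 13241 genes tested, 43.4% fell and 19.0% rose, and among the 9498 genes that also reached a mean of 5 FPKM, 44.6% fell and 20.2% rose. The test was limma on log2(FPKM + 1) across all tested genes with Benjamini-Hochberg adjustment, with an adjusted p under 0.05 as the threshold. Fold changes below are S100A4-positive minus S100A4-negative on that log2(FPKM + 1) scale, where changes of genes with a low level come out too small. The median member changed by -0.59, compared with -0.36 for all genes tested, a difference of -0.23. The quartiles of the members were -0.88 and -0.23, and 98 of 148 lay below the median of all genes tested.

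The groups did not overlap for 115 members. In 102 of them every S100A4-negative library was above every S100A4-positive one, and in 13 the order was the opposite. These are 68.9% and 8.78% of the members, against 49.1% and 20.9% of all genes tested. Of the 29 members with a log2 fold change of -1 or lower, all called, the lowest was Zfp141 at -1.91, and 5 members were at 1 or above. Together these 34 are 23.0% of the members, a smaller share than the 29.5% of all genes tested. Of the 13241 genes tested, 2265 were at -1 or lower and 1636 at 1 or above.

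**Figure D1:**
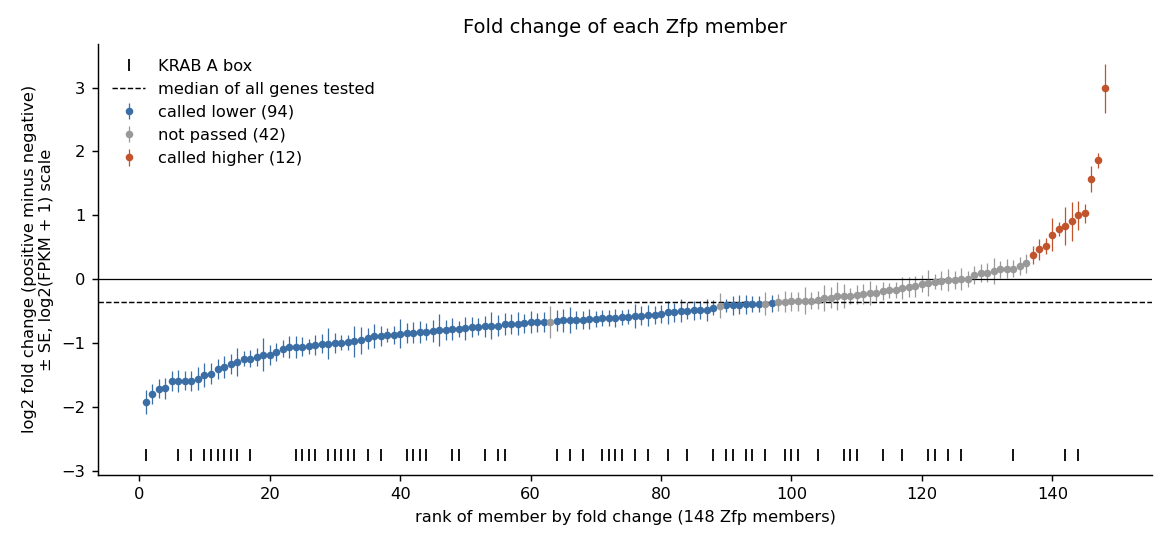
Log2 fold change ± SE of each of the 148 members, ranked from the lowest to the highest, with members called lower in blue, called higher in orange and not passed in grey (3 libraries per group). Ticks at the bottom mark the 63 members in which a KRAB box was found, and the dashed line is the median of all genes tested (-0.36), below which 98 members lie.

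The size of the excess depended on how the libraries were scaled, and its direction did not change in the scalings tried. Median-of-ratios rescaling moved the median of all genes tested up by 0.33 and quantile normalization moved it up by 0.20. After median-of-ratios rescaling 47 members were called lower and 21 higher, 31.8% and 14.2%, against 24.8% and 27.3% of all genes tested and 24.5% and 30.5% of those with a mean of at least 5 FPKM. After quantile normalization the members' counts were 67 and 16 (45.3% and 10.8%), against 31.6% and 22.9% of all genes tested. Higher calls thus made up 11.3% of the members' calls on the FPKM used as they were, 30.9% with median-of-ratios and 19.3% with quantile scaling. The members' median relative to all genes tested was -0.23, -0.21 and -0.19 in the same order. The 12 members that rose were called higher in all 3 scalings, and 47 were called lower in all 3. No member was called higher in 1 of the 17 fits and lower in another.

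**Figure D2:**
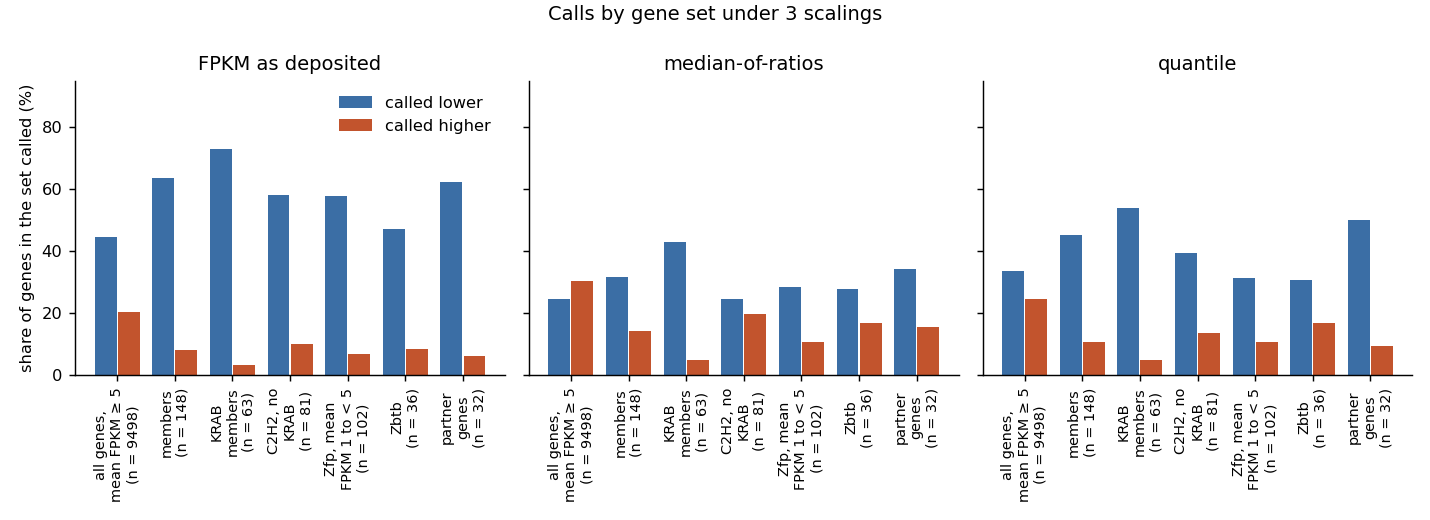
Share of genes in each set called lower (blue) or higher (orange) in S100A4-positive cells, in percent, on FPKM as deposited and after 2 rescalings (3 libraries per group). The members have a larger lower share and a smaller higher share than all genes with a mean of at least 5 FPKM in each panel, and the KRAB members have the lowest higher share (3.17% to 4.76%).

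Members at 5 FPKM or more in both groups and those that got there through 1 group differed in these counts. Of the 122 in both groups, 74 fell (60.7%) and 9 rose (7.38%), with a median of -0.51. Among all genes with a mean of at least 5 FPKM, 44.6% fell and 20.2% rose. Of the 26 that reached 5 FPKM in only 1 group, 20 fell (76.9%) and 3 rose (11.5%). In this set the choice by level selects for a difference. After median-of-ratios rescaling the 122 gave 31 lower (25.4%) and 18 higher (14.8%) calls, so that the lower share was close to that of all genes with such a level (24.5%), while the higher share stayed below it (30.5%). For the 102 Zfp genes with a mean from 1 to under 5 FPKM, which are no members, 59 fell (57.8%) and 7 rose (6.86%). Their median was -0.55, and all genes tested gave 43.4% and 19.0%.

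In abundance Zfp36 stood apart from the other members, and it rose. Its level was 153, 134 and 132 FPKM in the S100A4-negative libraries and 389, 331 and 559 in the S100A4-positive ones. All S100A4-positive libraries were above all S100A4-negative ones, and the third was the highest. The log2 fold change was 1.57 (SE 0.20, limma with Benjamini-Hochberg adjusted p = 5.88e-04, n = 3 per group). Zfp36 made up 4.01% to 4.67% of the members' summed FPKM in S100A4-negative libraries and 13.3% to 19.8% in S100A4-positive ones. Without it, the members summed to 2838 to 3171 FPKM in S100A4-negative libraries and to 2168 to 2410 in S100A4-positive ones, and these ranges did not overlap. As shares of all FPKM in a library these sums were closer, at 0.386% to 0.453% and 0.327% to 0.376%. With Zfp36 the shares overlapped, at 0.404% to 0.472% and 0.377% to 0.437%.

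Zfp36 was followed in level by Zfp106, Zfp592, Zfp445, Zfp706 and Zfp740. Zfp106, an RNA-binding protein known from motor neurons and muscle, was at 115 ± 19.8 and 129 ± 10.1 FPKM and did not pass (0.17, SE 0.15, adjusted p = 0.357). After median-of-ratios rescaling it was called higher (0.54, limma adjusted p = 0.0148). Of its exonic bases, 26.1% overlap another gene, and reads were not assigned by a stated strand rule. Zfp592, which acts in a complex with Zmynd8 and Zfp687, was at 122, 71.3 and 89.0 FPKM against 63.9, 44.3 and 45.6 and fell by 0.85 on the log2 scale (SE 0.23, limma adjusted p = 0.0137). That call was lost after median-of-ratios rescaling (-0.48, limma adjusted p = 0.110).

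Zfp740 was at 84.3, 82.7 and 89.1 against 54.7, 39.7 and 45.7 FPKM and fell (-0.87, SE 0.14, limma adjusted p = 0.00149). Zfp706 overlapped between the groups, at 58.7, 67.2 and 85.6 against 71.1, 60.5 and 62.3 FPKM, and did not pass (-0.11, SE 0.16). The level fell off steeply below these genes. Only 9 members had a mean of at least 50 FPKM and 41 of at least 20, while 56 were under 10. Zfp445 and Zfp706, next to each other in this order, had SDs of 6.12 and 13.8 FPKM in S100A4-negative libraries and means of 82.4 and 70.5. At the other end Zfp296, Zfp157 and Zfp61 lay just inside the limit. Their group means were 5.14 and 5.13 FPKM for Zfp296, 7.0 and 3.26 for Zfp157, and 6.82 and 3.42 for Zfp61, with the S100A4-negative mean first. Zfp35 (mean 4.97 FPKM), Zfp748 (4.92) and Zfp467 (4.86) lay just outside.

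**Figure D3:**
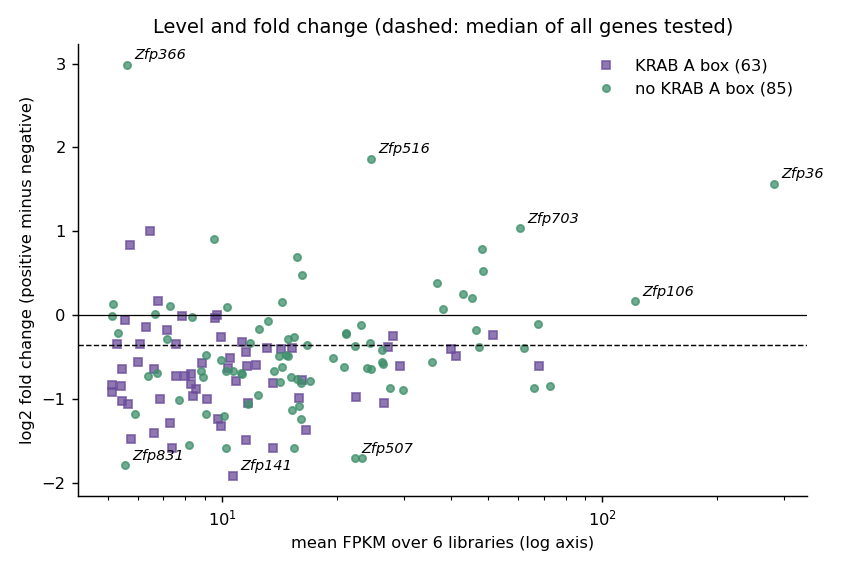
Log2 fold change of each member against its mean FPKM over the 6 libraries (log axis), with the 63 KRAB members as squares and the other 85 as circles. Zfp36 lies far to the right of all other members, and no KRAB box was found in the 3 members with the largest rise (Zfp366, Zfp516 and Zfp36).

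Besides Zfp36, the members that rose were Zfp366, Zfp516, Zfp703, Zfp719, Zfp608, Zfp971, Zfp263, Zfp710, Zfp513, Zfp800 and Zfp655. Of these, Zfp366, Zfp719 and Zfp971 reached a mean of 5 FPKM only through the S100A4-positive libraries, so the choice by level selected for their difference. Zfp366, also called DC-SCRIPT, is a factor known from dendritic cells. It had 22, 23 and 92 reads in the S100A4-negative libraries, or 0.203, 0.203 and 0.773 FPKM, and 532, 1131 and 1755 reads in the S100A4-positive ones, or 4.92, 11.9 and 15.8 FPKM. Within each group the highest library was more than 3 times the lowest (3.81 and 3.22 times), the widest spread of any member, and the groups were still far apart. The log2 fold change was 2.99 (SE 0.39, limma adjusted p = 6.24e-04), and the ratio of mean FPKM was 27.7. Dendritic cell markers rose beside it, as given above.

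Zfp516, a factor known for its part in brown fat, was close to constant within each group. It was at 9.53, 10.5 and 10.2 FPKM in S100A4-negative libraries and at 36.8, 38.7 and 42.4 in S100A4-positive ones. Its log2 fold change of 1.86 (SE 0.12) had the smallest adjusted p of the members that rose (3.89e-05, limma). Zfp703, a transcriptional corepressor without a C2H2 match here, was at 39.4, 45.7 and 33.6 against 74.5, 93.1 and 78.0 FPKM. It rose by 1.04 (SE 0.15, limma adjusted p = 0.00102). Of its exonic bases, 13.5% overlap another gene.

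Among the members in which a KRAB box was found by sequence, only Zfp719 and Zfp971 were called higher on FPKM as deposited. Zfp719 was at 4.03, 4.18 and 3.44 FPKM in S100A4-negative libraries and at 6.07, 11.5 and 9.50 in S100A4-positive ones (1.00, SE 0.22, limma adjusted p = 0.00664). Zfp971 was at 3.48, 3.32 and 4.13 against 11.9, 4.42 and 7.11 FPKM, with 1 S100A4-positive library close to the S100A4-negative ones (0.84, SE 0.30, limma adjusted p = 0.0424). Of the 50-base words in its transcripts, 40.0% also occur in other genes, so its reads are uncertain. Its call was lost when any library but S100A4-positive replicate 2 was left out (0.52 to 0.91, limma adjusted p from 0.0723 to 0.106).

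Zfp263 was at 32.4, 35.8 and 36.9 FPKM against 57.2, 64.1 and 62.8, with little spread in either group, and rose by 0.79 (SE 0.11, limma adjusted p = 8.59e-04). Zfp608 was at 3.94, 5.41 and 10.4 FPKM against 15.1, 10.7 and 11.8. Its groups did not overlap, but S100A4-negative replicate 3 came close to S100A4-positive replicate 2 (0.91, SE 0.30, limma adjusted p = 0.0333). The call was lost without any 1 of the other 5 libraries (0.65 to 1.01, limma adjusted p from 0.0551 to 0.0933). Zfp710 (0.70), Zfp513 (0.53), Zfp800 (0.47) and Zfp655 (0.38) rose by less. Only Zfp263, Zfp36, Zfp366, Zfp513, Zfp516, Zfp703 and Zfp719 were called higher in each of the 6 fits that left out 1 library. The count of members called higher fell from 12 to 7 without S100A4-negative replicate 1, S100A4-negative replicate 2 or S100A4-positive replicate 3.

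**Figure D4:**
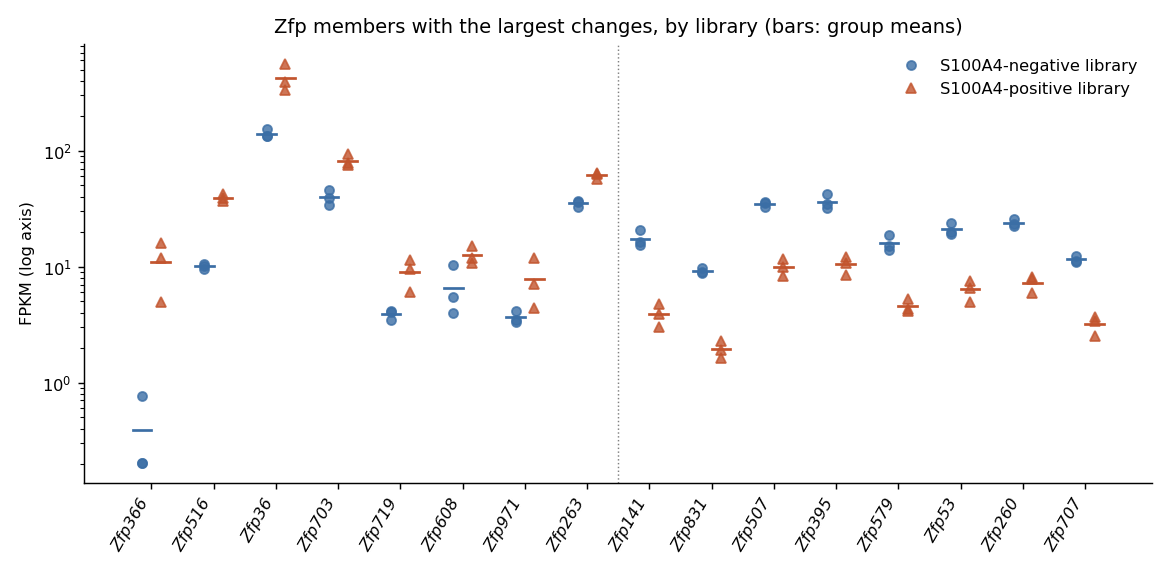
FPKM on a log axis in each S100A4-negative (circles) and S100A4-positive (triangles) library for the 8 members with the largest rise and the 8 with the largest fall, with bars at the group means (3 libraries per group). The groups do not overlap for any of the 16, and Zfp366 has the widest gap.

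The 8 members with the largest fall were Zfp141, Zfp831, Zfp507, Zfp395, Zfp579, Zfp53, Zfp260 and Zfp707, with log2 fold changes of -1.91 to -1.58. Zfp141, a KRAB member with 10 fingers, was at 20.5, 15.5 and 16.3 FPKM in S100A4-negative libraries and at 4.78, 3.0 and 3.93 in S100A4-positive ones (-1.91, SE 0.19, limma adjusted p = 1.88e-04). Of its 50-base words, 11.7% occur in other genes. Zfp831, with 2 fingers and no KRAB box found, was at 8.95, 9.67 and 8.83 against 1.91, 1.63 and 2.27 FPKM (-1.79, SE 0.15, limma adjusted p = 1.04e-04). The ratio of mean FPKM of Zfp831 was 4.72. Zfp141, Zfp831, Zfp579 and Zfp707 reached a mean of 5 FPKM only through the S100A4-negative libraries, so the choice by level selected for their difference. The S100A4-negative libraries of both genes were all far above the S100A4-positive ones.

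Zfp507 was at 35.3, 32.5 and 36.0 FPKM against 9.91, 11.7 and 8.31 (-1.71, SE 0.15), and 28.3% of its exonic bases overlap another gene. Zfp395, with 1 finger, was at 42.1, 32.1 and 34.7 against 12.1, 8.45 and 10.8 FPKM (-1.71, SE 0.17). These were the members of this group with the highest level in S100A4-negative cells. Zfp579 fell from 15.8 ± 2.45 to 4.59 ± 0.619 FPKM (SD, n = 3). Zfp53, a KRAB member with 15 fingers, fell from 20.9 ± 2.34 to 6.35 ± 1.29 FPKM. Zfp260 fell from 23.6 ± 1.81 to 7.26 ± 1.20 FPKM, and Zfp707 from 11.5 ± 0.751 to 3.2 ± 0.595. All 8 were called lower after both rescalings too.

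The members with a change nearest to 0 were Zfp568, Zfp296, Zfp653 and Zfp984. Their group means, S100A4-negative first, were 9.65 and 9.71 FPKM for Zfp568, 5.14 and 5.13 for Zfp296, 6.65 and 6.71 for Zfp653 and 7.86 and 7.86 for Zfp984. Against the median of all genes tested (-0.36) these genes lay higher. After median-of-ratios rescaling their log2 fold changes were 0.31 to 0.35, and Zfp653 was then called higher (0.34, limma adjusted p = 0.0426). Zfp984 shares 54.6% and Zfp653 15.1% of their 50-base words with other genes.

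Replicates were close for most members. The highest library of a group was under 1.5 times the lowest for 138 of 148 members in S100A4-negative cells and for 122 in S100A4-positive cells, with medians of 1.22 and 1.32 times. After Zfp366, the widest spreads were those of Zfp971, Zfp608, Zfp710 and Zfp950. Of the 94 calls of a fall, 74 were made again in each of the 6 fits that left out 1 library, and 46 in all 17 fits.

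Members were then split by what their proteins carry, which the choice of members did not use. A profile of the KRAB A box matched 63 members, 81 had C2H2 fingers and no such match, and 4 had no C2H2 finger by the pattern used (Zfp36, Zfp703, Zfp330 and Zfp839). A KRAB box that the profile missed would leave a member outside the 63, and Zfp263, which rose, had no match. Of the KRAB members, 46 fell (73.0%) and 2 rose (3.17%), 15 missed the threshold, and the median was -0.64. Of the C2H2 members without KRAB, 47 fell (58.0%) and 8 rose (9.88%), 26 missed the threshold, and the median was -0.51. All genes tested gave 43.4% and 19.0%. Through 1 group only, 16 of the 63 and 9 of the 81 had reached 5 FPKM. Of those at that level in both groups, 33 of 47 KRAB members fell and 0 rose, and 40 of 72 of the others fell and 7 rose. After median-of-ratios rescaling the counts were 27 lower and 3 higher for KRAB members and 20 lower and 16 higher for the others, with medians of -0.31 and -0.15. These are 42.9% and 4.76% of the KRAB members and 24.7% and 19.8% of the others, against 24.8% and 27.3% of all genes tested. The lower share of the others was thus that of the background in this scaling. The classes also differed in level, with a median of the mean FPKM of 9.56 for KRAB members and 15.3 for the others. The difference in calls between these classes and the part of level in it were not tested. KRAB members summed to 936 to 1055 FPKM in S100A4-negative libraries and to 606 to 675 in S100A4-positive ones.

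Finger number ran from 1 to 36 in members with C2H2 fingers, with a median of 9. It went with the change only weakly (Spearman rho -0.16 over 148 genes, which share the same 6 libraries). Of the 28 members with 1 to 4 fingers, 57.1% fell, of those with 5 to 9 fingers 64.8%, and of those with 10 or more 67.7%, against 43.4% of all genes tested. The mean level, which the choice of members used, went with the change weakly (rho 0.16, and 0.10 over the 13241 genes tested). In 4 sets of 37 members, from the highest mean FPKM to the lowest, 51.4%, 73.0%, 75.7% and 54.1% fell, so the share that fell did not follow the level in 1 direction. Among all genes with a mean of at least 5 FPKM, 44.6% fell. The highest set had a median of -0.38, near the -0.36 of all genes tested. After median-of-ratios rescaling 16.2% of that set were called lower and 27.0% higher, against 24.5% and 30.5% of all genes with a mean of at least 5 FPKM.

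For 19 members with a well-known function, picked after their values were seen, 9 fell, 3 rose and 7 did not pass. Among all genes tested 43.4% fell and 19.0% rose, so these counts set the 19 little apart. These are single genes and no group of them was tested. Zfp346, which binds double-stranded RNA, fell from 22.0 ± 1.70 to 9.85 ± 0.864 FPKM (SD, n = 3; -1.08, SE 0.13, limma adjusted p = 4.17e-04). Zfp598, the ubiquitin ligase that senses collided ribosomes, was at 32.3, 26.3 and 29.6 FPKM against 20.01, 15.5 and 20.4 and fell (-0.64, SE 0.15, limma adjusted p = 0.00783). After median-of-ratios rescaling that change was -0.27 and did not pass. Zfp622, a factor of large ribosomal subunit assembly, was at 49.3 ± 1.29 and 43.8 ± 5.06 FPKM and did not pass (-0.17). Its log2 fold change turned to 0.20 after median-of-ratios rescaling. Zfp326, a splicing factor, did not pass either (-0.21), and its sign also turned after rescaling (0.15).

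Zfp445, a KRAB protein that maintains imprinted methylation, was at 82.4, 76.3 and 88.5 FPKM against 57.6, 47.3 and 57.0 and fell (-0.60, SE 0.12, limma adjusted p = 0.00462). The groups were well apart, and the call was lost after median-of-ratios rescaling (-0.23, limma adjusted p = 0.0885). Zfp809, which silences endogenous retroviruses, was at 37.2, 23.6 and 32.5 FPKM against 22.3, 21.9 and 25.7 and did not pass (-0.38, SE 0.18). Without S100A4-negative replicate 2, its lowest library of that group, it was called lower (-0.56, limma adjusted p = 0.0193). Zfp638, which silences unintegrated retroviral DNA with the HUSH complex, had overlapping groups at 30.0 ± 3.66 and 22.7 ± 5.94 FPKM and did not pass (-0.41, SE 0.20, limma adjusted p = 0.106). Without S100A4-positive replicate 3 it was called lower (-0.59, limma adjusted p = 0.0343). Zfp568, which represses a placental Igf2 transcript, is among the 4 nearest to 0.

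Zfp335, needed for T cell maturation, fell and was at 19.9, 19.1 and 18.5 FPKM against 13.8, 10.1 and 9.67 (-0.74, SE 0.16, limma adjusted p = 0.00502). All S100A4-negative libraries were above all S100A4-positive ones, while 28.3% of its exonic bases overlap another gene. Zfp318, which B cells need to make the IgD transcript, was at 14.7, 14.4 and 26.3 FPKM against 9.55, 8.31 and 11.99 (-0.79, SE 0.25, limma adjusted p = 0.0265). S100A4-negative replicate 3 was far above the other libraries. The call was lost without that library (-0.52, limma adjusted p = 0.0553), without S100A4-positive replicate 1 (-0.77, 0.0548) or without S100A4-positive replicate 2 (-0.68, 0.0852), and so it was after both rescalings (-0.44 and -0.53). T cell and B cell markers fell beside these genes, as given above. The call of Zfp335 was lost after median-of-ratios rescaling (-0.39, limma adjusted p = 0.0665).

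Of the remaining regulators, Zfp410 activates Chd4, which encodes a remodeller of the NuRD complex. Zfp410 was at 37.8, 34.4 and 36.1 FPKM against 19.9, 18.04 and 19.8, with groups far apart (-0.87, SE 0.11, limma adjusted p = 5.39e-04). Chd4 was at 205 ± 8.25 and 137 ± 11.8 FPKM (SD, n = 3) and also fell (-0.57, SE 0.11, limma adjusted p = 0.00406). After median-of-ratios rescaling Zfp410 was still called lower (-0.51) and Chd4 was not (-0.20). Zfp746, also called PARIS, a repressor of PGC-1 alpha, fell from 35.6 ± 1.41 to 23.1 ± 2.52 FPKM (-0.61, limma adjusted p = 0.00386), and after median-of-ratios rescaling it was not called (-0.24). Zfp207, a spindle assembly factor, and Zfp451, a SUMO ligase, fell by 0.40 and 0.37 on the log2 scale (limma adjusted p = 0.0459 and 0.0430). The change of both was near 0 after median-of-ratios rescaling (-0.025 and -0.011). The call of Zfp207 was also lost without any 1 library except S100A4-negative replicate 2 or S100A4-positive replicate 1 (limma adjusted p from 0.0797 to 0.133 where lost), and that of Zfp451 without any 1 library except S100A4-negative replicate 2 (0.0664 to 0.131). Zfp143, which acts at small nuclear RNA gene promoters, did not pass (0.10) and was called higher after median-of-ratios rescaling (0.45, limma adjusted p = 0.0218).

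Many Zfp genes lie side by side in the genome, and members were placed by GENCODE M21 on GRCm38. Chromosome 7 held 33 members and chromosome 17 held 15, of 19 chromosomes with any. With neighbours joined over gaps of up to 200 kb, 54 members fell into 19 clusters of 2 to 6 members. Of these 54, 41 fell (75.9%) and 1 rose (1.85%), and of the 94 members apart 53 fell (56.4%) and 11 rose (11.7%), against 43.4% and 19.0% of all genes tested. After median-of-ratios rescaling 37.0% of the clustered members and 28.7% of those apart were called lower, against 24.8%. The difference between clustered members and those apart was not tested, and 12 of the 54 and 14 of the 94 reached 5 FPKM through 1 group only. In 10 clusters every member was called lower. In 1 cluster, on chromosome 16, the members were called in opposite directions, as Zfp263 rose and Zfp597 fell (-0.60). After quantile normalization and after median-of-ratios rescaling Zfp597 was not called.

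The cluster with most members lies at chr6:47835661-48086593 and holds Zfp398, Zfp282, Zfp212, Zfp956, Zfp777 and Zfp746 in that order. All 6 fell, with log2 fold changes from -1.55 to -0.61. Zfp956 was at 12.5, 11.8 and 13.8 FPKM in S100A4-negative libraries and 4.2, 2.67 and 4.26 in S100A4-positive ones (-1.55, limma adjusted p = 3.97e-04). Zfp398 was at 12.8, 9.03 and 10.5 against 4.99, 2.71 and 3.88 FPKM (-1.29, limma adjusted p = 0.00187). Zfp777 was at 42.7, 32.3 and 33.8 against 19.0, 16.5 and 15.2 FPKM (-1.05, limma adjusted p = 9.58e-04). No library of 1 group reached the range of the other for any of these genes. Of the genes with values by library here, Zfp956 and Zfp398 reached a mean of 5 FPKM only through the S100A4-negative libraries. The choice by level thus selected for their difference. Zfp212 (-0.98), Zfp956, Zfp398 and Zfp777 were called lower after both rescalings, Zfp746 only after quantile normalization, and Zfp282 (-0.65) after neither. The cluster at chr7:29983955-30169750 was mixed, as Zfp260, Zfp382 and Zfp146 fell and Zfp568 was near 0.

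Promoter windows from RefSeq (GRCm38.p6), from upstream of each gene's start to just inside it, were found for 122 members. The letters CCGGAAGT, an ETS motif with a CpG, on either strand, were in 13 of them (10.7%), against 8.81% of 9328 tested genes with a window. GAGGAAGT, a PU.1-type motif, was in 3 (2.46% against 3.63%), TGTGGTT, a RUNX motif, in 5 (4.10% against 3.74%), and TATAAA in 7 (5.74% against 7.09%). The palindromic NRF1 motif was in 4 (3.28% against 2.12%). Both ETS motifs end in the same letters after different ones, so no site can match both. The members' windows had a median GC content of 57.8%, against 60.7% for the tested genes. The shares are near the background, and a match is only these letters in this window.

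Corepressors and chromatin factors that KRAB zinc finger proteins work with were described from a list of 32 genes. Of these, 20 fell and 2 rose, 10 missed the threshold, and the median was -0.52. The shares were 62.5% lower and 6.25% higher, against 43.4% and 19.0% of all genes tested. After median-of-ratios rescaling 11 were called lower (34.4%) and 5 higher (15.6%), against 24.8% and 27.3%. Trim28, which binds the KRAB box directly, was at 234, 219 and 241 FPKM in S100A4-negative libraries and at 136, 122 and 136 in S100A4-positive ones. It fell by 0.81 on the log2 scale (SE 0.11, limma adjusted p = 7.56e-04) and was called lower after both rescalings. Setdb1, the methyltransferase that Trim28 recruits, had overlapping groups at 14.0, 10.5 and 13.6 against 11.004, 7.58 and 8.79 FPKM and did not pass (-0.44, SE 0.18, limma adjusted p = 0.0649). Leaving out S100A4-negative replicate 2 (-0.56, limma adjusted p = 0.0441) or S100A4-positive replicate 1 (-0.57, 0.0292) gave a call of lower.

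The partner genes with the largest fall were Hells, a remodeller needed for DNA methylation (21.8 ± 3.16 to 5.84 ± 1.36 FPKM, -1.74), Chd3 of the NuRD complex (178 ± 1.89 to 63.6 ± 12.1, -1.49), Cbx5, which encodes heterochromatin protein 1 alpha (19.3 ± 4.51 to 6.63 ± 1.54, -1.41), and Uhrf1, which brings Dnmt1 to replicated DNA (34.4 ± 4.94 to 12.6 ± 2.72, -1.39). Dnmt3a, a de novo DNA methyltransferase, rose from 33.6 ± 0.210 to 51.3 ± 8.44 FPKM (0.58), and Pphln1, a HUSH subunit, from 28.3 ± 2.87 to 42.3 ± 2.84 (0.57). The groups of these 6 genes did not overlap, and all 6 were called in the same direction after both rescalings.

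**Figure D5:**
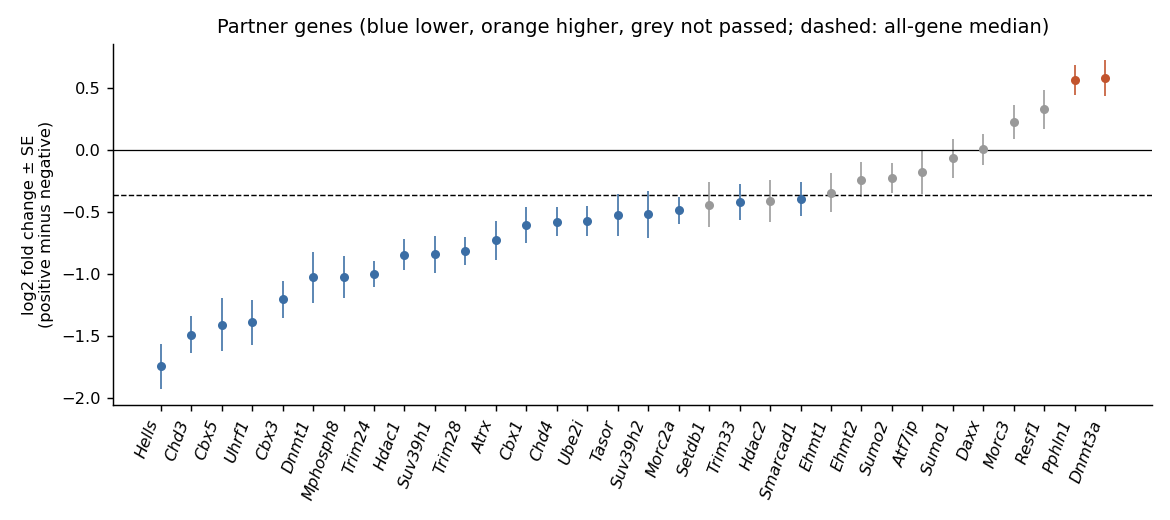
Log2 fold change ± SE of the 32 partner genes on the log2(FPKM + 1) scale, in order of size (3 libraries per group), with genes called lower in blue, called higher in orange and not passed in grey. The dashed line is the median of all genes tested (-0.36); Hells lies lowest at -1.74 and Dnmt3a highest at 0.58.

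Other families with zinc finger names were set beside the members. Of 36 Zbtb genes, which pair fingers with a BTB domain, 17 fell (47.2%) and 3 rose (8.33%), with a median of -0.42. Of 65 genes with other zinc finger names (Zkscan, Zscan, Zmym, Zmynd, Zc3h and letter-named Zfp genes), 39 fell (60%) and 5 rose (7.69%), with a median of -0.59. The higher share was thus under the background of 19.0% in the Zfp members and in both other families, and no difference between the families was tested.

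The authors' deposited table, which gives group means scaled by size factors, called fewer members. Its calls, taken from the authors' deposited table, were higher for 11 members and lower for 25 in S100A4-positive cells, against 11.6% and 7.35% of the 28627 genes it lists, or 21.6% and 12.6% of those with a mean of at least 5 FPKM. All 36 were called in the same direction here. The members' median log2 fold change in the authors' deposited table was -0.25, close to the -0.24 found here after median-of-ratios rescaling.

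Sequence that members share with other genes, or exons that overlap a neighbour, can misplace reads. For 28 members over 10% of the exonic bases overlapped another gene or over 10% of the 50-base words occurred elsewhere. Among the other 120, 79 fell and 10 rose, 65.8% and 8.33%, against 43.4% and 19.0% of all genes tested.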

How the data were processed

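Polyadenylated RNA of 3 S100A4-negative and 3 S100A4-positive libraries was sequenced, per the labels' protocols. The authors deposited FPKM per gene and library. Per the file headers, the authors' table of the comparison holds group means of normalized counts (a signal), log2 fold changes, p-values and adjusted p-values. Per the submitters' processing notes, HISAT2 2.1.0, Cufflinks, Cuffnorm and mm10 were used; how reads were counted and the treatment of strand are not given in the sources used here. Reads were recovered from the FPKM together with the authors' group means of normalized counts. All 135018 values above 0 came out within 0.02 of whole reads (100%).

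Genes with a mean of at least 1 FPKM were tested on the log2(FPKM + 1) scale with limma 3.58.1 (R 4.3.3), using a trended prior and Benjamini-Hochberg adjustment over 13241 genes. The code was tested on simulated data. Members and gene lists were chosen with earlier results of these data known. Named members were the 6 highest in level, the 8 with the largest called change per direction, the 4 nearest 0, the 3 on each side of the limit, Zfp36, and 19 with known roles; other members, such as those of the chromosome 6 cluster, were picked after their values were seen. Partner genes named were the 4 with the largest called change per direction, Trim28, Setdb1 and, after its values were seen, Chd4.

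RefSeq proteins had been planned for the protein classes, but coding sequences of GENCODE M21 (GRCm38, the build mm10 names) were translated instead. C2H2 fingers were matched by spacing (C, 2 to 4 residues, C, 12, H, 3 to 5, H). The KRAB A box was found with a profile built by pyhmmer 0.12.3 from 112 seed segments (E under 0.001). A strict pattern took these segments from the same translated Zfp proteins. Python 3.11.15, numpy 2.4.6, pandas 2.3.3, scipy 1.17.1 and Biopython 1.88 were used. Alternatives were another pseudocount, other filters, median-of-ratios and quantile scaling, limma without trend, array weights, a replicate block, each library left out, and voom on recovered reads, scaled by library totals and, added after seeing the data, with the authors' size factors.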

Additional observations from a re-analysis of the deposited data

How the results depend on the processing

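Over 16 alternatives the median log2 fold change of the members stayed below 0 and below that of all genes tested. Members called lower numbered 47 and called higher 21 after median-of-ratios rescaling and in voom with the authors' size factors (chosen after seeing the data), where the median was -0.24 and -0.25. Quantile normalization gave a median of -0.35. Without a filter 7 members were called higher, and the median relative to all genes was -0.53, while the calls of Zfp207, Zfp451, Zfp318, Zfp608 and Zfp971 were lost. That fit took in every gene above 0 in any library, and changes of genes with a low level come out too small on this scale. Its relative median is therefore not comparable with that of the main fit. Partner genes gave 11 lower and 5 higher calls after median-of-ratios rescaling and in voom with the authors' size factors. With voom on library totals 97 members were called lower and 12 higher. Leaving out 1 library gave 7 to 10 higher and 76 to 93 lower calls, medians of -0.65 to -0.51, relative medians of -0.27 to -0.17, and 16 to 21 lower and 2 to 3 higher calls of partner genes.

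Among genes that did not pass, signs turned after median-of-ratios rescaling for Zfp706 (0.26), Zfp622 (0.20), Zfp326 (0.15), Zfp984 (0.32) and Zfp296 (0.31). In voom with the authors' size factors the values were 0.28, 0.21, 0.17, 0.38 and 0.37. They turned after quantile normalization for Zfp326 (0.016), Zfp984 (0.27) and Zfp296 (0.28), and with array weights for Zfp568 (-0.094), Zfp653 (-0.015) and Zfp296 (0.0094). Leaving out 1 library gave -0.15 to 0.093 for Zfp984, -0.12 to 0.11 for Zfp568, -0.017 to 0.035 for Zfp653, -0.070 to 0.069 for Zfp296, -0.0082 to 0.17 for Zfp143 and -0.23 to 0.037 for Zfp706. The cause was not tested. Of the values of named genes under alternatives, 678 kept direction and call, 48 lost the call, 14 gained it and 28 changed sign.

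The labels number the libraries 1 to 3 in each group without saying that a number marks a shared animal or day. Deviations from the group means correlated at 0.376, 0.083 and 0.366 for same-numbered libraries. For libraries with different numbers the values ran from -0.379 to 0.146. These values do not settle whether the numbers mark pairs. As the labels state no pairing, the main fit had no block. With the replicate block 98 members were called lower and 11 higher, and Zfp638 (limma adjusted p = 0.0302) and Setdb1 (0.0218) were called lower. Library 2 of the S100A4-positive group correlated best with S100A4-negative library 3 (0.146). Depth limits the lowest members most, since the lowest had 22 reads in a library.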
